A study of Mus musculus with 6 samples.

Results

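The Dlk1-Dio3 domain of mouse chromosome 12 holds one of the largest groups of miRNA genes in the mouse genome. Its members were taken as every listed mature miRNA whose name carries one of 48 miRNA numbers that belong to the domain, with any letter and either arm. Of these numbers 46 had an entry, and miR-432 and miR-654 had none. The rule gave 96 of the 1189 mature miRNA entries of the series, which come from 49 hairpins, and it used names alone and no measured value.

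The libraries are small RNA from the prefrontal cortex of 6 wild type male C57BL/6 mice, 1 library per mouse. The 3 mice of the PND group (postoperative neurocognitive disorder) breathed 1.5% isoflurane for 30 min and then had an exploratory laparotomy of 30 min under isoflurane, while the 3 mice of the CON group had neither anesthesia nor operation. The operated mice also had lidocaine cream and povidone iodine put on the incision, at the end of the operation and daily for 3 days. Anesthesia, operation and this wound care were never given apart, so their parts in a difference between the groups cannot be told apart. Both groups ran the same behavioral tests, and the brains of all mice were taken under deep isoflurane anesthesia after a saline perfusion. This was done after the last test, the Barnes maze, which ran up to postoperative day 6. The age of all mice is given as 18 months, although the sample titles carry the number 17. The labels name a total RNA library kit and the methods of the study a small RNA kit.

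The domain is imprinted, which means that the parental origin of a chromosome decides which of its genes are read. The protein genes Dlk1, Rtl1 and Dio3 are read from the paternal chromosome, and the long noncoding RNAs Meg3, Rian and Mirg and the miRNAs are read from the maternal one. The miRNAs are cut from long maternal transcripts and are abundant in brain. Each hairpin can give a mature miRNA from its 5′ side (5p) and one from its 3′ side (3p), and the seed, bases 2 to 8 of the mature miRNA, does most of the pairing with a target mRNA. Several members are known from neurons: miR-134-5p acts on dendritic spines, miR-485-5p on synapses, and miR-381-3p and miR-329-3p on dendrite growth. The group opposite Rtl1 is known for full complementarity to the Rtl1 mRNA.

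RefSeq held a mature sequence and a position on GRCm38.p6 for 92 of the 96 members, all but miR-376c-3p, miR-485-5p, miR-487b-3p and miR-539-3p. The 12 most abundant members are shown first, since they carried most of the signal, in order of their mean level, with the seed in capitals.
miR-127-3p: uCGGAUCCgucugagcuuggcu
miR-434-5p: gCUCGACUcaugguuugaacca
miR-434-3p: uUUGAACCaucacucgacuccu
miR-381-3p: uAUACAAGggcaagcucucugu
miR-370-3p: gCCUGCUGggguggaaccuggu
miR-300-3p: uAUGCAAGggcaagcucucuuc
miR-379-5p: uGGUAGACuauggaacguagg
miR-411-5p: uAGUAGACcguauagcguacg
miR-543-3p: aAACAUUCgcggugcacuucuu
miR-433-3p: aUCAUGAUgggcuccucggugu
miR-541-5p: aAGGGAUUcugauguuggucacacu
miR-495-3p: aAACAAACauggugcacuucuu

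The next sequences belong to the 3 members with a p under 0.05 between the groups and to the hairpin miR-136, whose arms varied most among the mice of all members with a mean of at least 10 CPM. Capitals mark the seed again.
miR-127-5p: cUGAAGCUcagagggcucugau
miR-544-5p: uCUUGUUAaaaagcagagucu
miR-665-5p: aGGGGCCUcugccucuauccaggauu
miR-136-5p: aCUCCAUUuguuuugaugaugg
miR-136-3p: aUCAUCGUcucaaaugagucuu

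The last set shows some of the members with near-identical sequences, for which the files do not say how a read that matches more than one miRNA was counted. Capitals mark the seed.
miR-379-3p: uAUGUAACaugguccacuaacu
miR-411-3p: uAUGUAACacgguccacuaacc
miR-376b-5p: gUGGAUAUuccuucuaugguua
miR-376c-5p: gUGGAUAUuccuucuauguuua
miR-154-3p: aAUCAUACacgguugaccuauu
miR-369-3p: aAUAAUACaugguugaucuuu
miR-299a-3p: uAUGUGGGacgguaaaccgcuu
miR-299b-3p: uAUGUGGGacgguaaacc

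The 92 sequences held 86 distinct seeds, so most members of the cluster do not form a seed family. Only 6 seeds were shared, each by a pair of members: miR-379-3p with miR-411-3p, miR-376b-5p with miR-376c-5p, miR-299a-3p with miR-299b-3p, miR-379-5p with miR-1193-5p, miR-370-5p with miR-1193-3p and miR-410-5p with miR-494-5p. A further 6 members shared a seed with a miRNA outside the cluster, among them miR-329-3p with miR-362-3p and miR-410-3p with miR-344d-3p and miR-344e-3p. Positions below count from 1 at the 5′ end, with the base of the first-named miRNA first. The sequences of miR-376b-5p and miR-376c-5p differ by G19U alone, and those of miR-379-3p and miR-411-3p by U10C and U22C. Across their first 18 bases miR-299a-3p and miR-299b-3p have no difference. Of the pairs not printed, miR-299b-5p is identical to bases 2 to 22 of miR-299a-5p, and miR-376a-3p and miR-376b-3p differ by G4A, A13C and G20U. The pair miR-300-3p and miR-381-3p differs by G4A, which lies in the seed, and by U21G and C22U. The seed also separates miR-154-3p from miR-369-3p, by C4A, besides C10U, C17U and A20U. Levels of these members are uncertain to the extent that their reads were shared. The primary transcripts of miR-376a, miR-376b and miR-376c are also known for adenosine-to-inosine editing in brain, and edited and unedited reads are not separated in these values.

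The positioned members lie within 180075 bases, chr12:109563710-109743784 (GRCm38.p6), 90 of them on the plus strand and both arms of miR-299b on the minus strand. By the GENCODE M21 annotation of GRCm38, miR-770 lies in an exon of Meg3, miR-341 and miR-370 lie in introns of Rian, and 12 hairpins from miR-382 to miR-410 lie in Mirg. The hairpins miR-431, miR-433, miR-127, miR-434 and miR-136 lie opposite an exon of Rtl1 (chr12:109589193-109600330, minus strand). A further 5 hairpins lie between Meg3 and Rtl1 and 24 between Rian and Mirg. These lie outside Dlk1, Meg3, Rtl1, Rian, Mirg and Dio3, the only genes checked for overlap. The mature miR-127-3p is at chr12:109592888-109592909, miR-127-5p at chr12:109592854-109592875 and miR-544-5p at chr12:109729335-109729355, all on the plus strand. The GC content of the mature members ran from 23.8% to 76.2%, with a median of 48.9%.

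**Figure D1:**
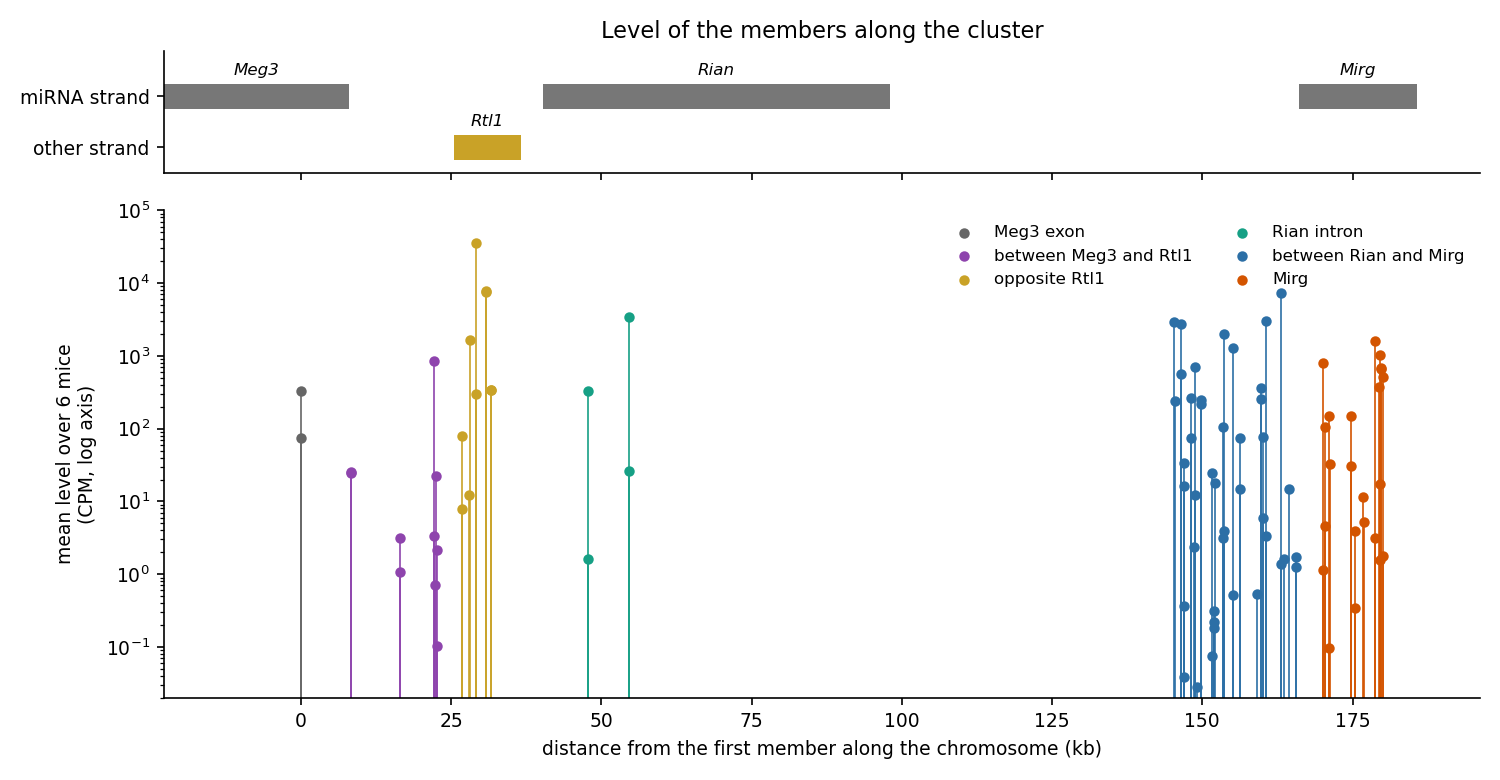
Each point is 1 member at its distance from the first member (kb, horizontal axis) and its mean level over 6 mice (CPM, logarithmic vertical axis), colored by the annotated region, with the annotated genes drawn above. The highest point, miR-127-3p, stands in the group opposite Rtl1, and no member lies between the intron of Rian that holds miR-370 and the group that starts with miR-379.

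Levels are in CPM, reads of a miRNA per 1000000 reads assigned to listed miRNAs. The libraries held 14849461 to 19471226 such reads, so that 3 reads, the lowest count treated as detected, correspond to 0.154 to 0.202 CPM. The cluster took 8.81%, 9.14% and 9.76% of the reads in PND mice 1, 2 and 3, and 8.58%, 7.31% and 9.05% in CON mice 1, 2 and 3. Of its members, 13 had a mean over 1000 CPM, 60 a mean of at least 10 CPM, 22 a mean of 1 to 10 CPM and 14 a mean under 1 CPM. The 60 made up 16.6% of all 361 entries with a mean of at least 10 CPM. A read was found in every library for 90 members, and 4 members (miR-668-5p, miR-494-5p, miR-299b-5p and miR-758-3p) never exceeded 3 reads in a library.

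The signal was unevenly spread. The leading member, miR-127-3p, was the 8th most abundant of all entries and carried 40.2% of the CPM of the cluster. Together with miR-434-5p, miR-434-3p and miR-381-3p it made up 65.8%, and the 12 members printed first made up 87.0%. By region, the 5 hairpins opposite Rtl1 held 60.6% of the CPM of the cluster, the 24 hairpins between Rian and Mirg 26.3%, and the 12 hairpins in Mirg 7.30%. The 2 Rian hairpins held 4.35%, the 5 hairpins between Meg3 and Rtl1 1.06%, and miR-770 in Meg3 0.464%. Neighbors on one strand therefore differed in mature level by orders of magnitude.

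**Figure D2:**
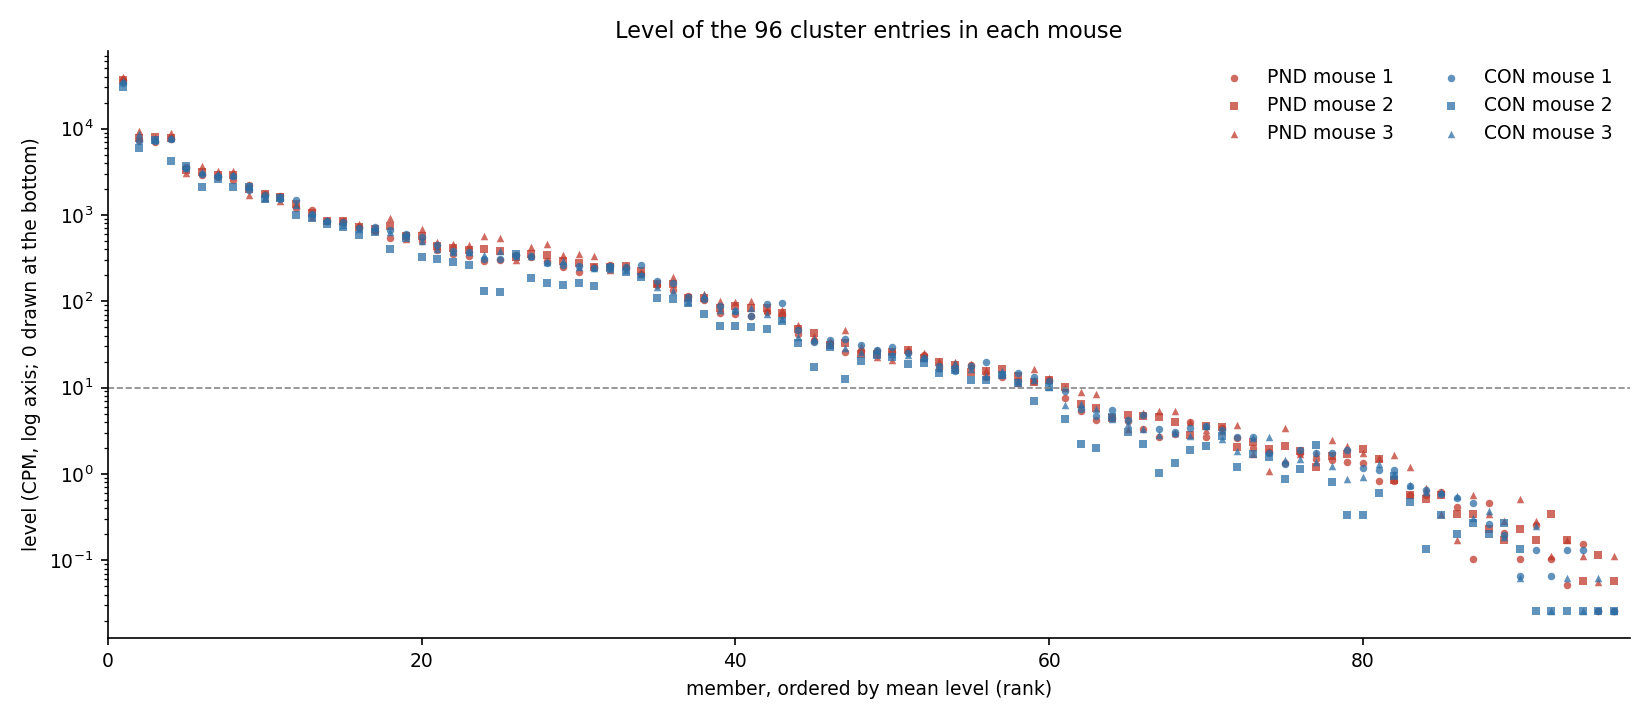
The level of each of the 96 members (CPM, logarithmic vertical axis, with 0 drawn at the bottom) is plotted by rank of its mean, red for PND and blue for CON, with 1 symbol per mouse number. The 6 mice follow one curve from miR-127-3p down to single reads, and the blue squares of CON mouse 2 lie lowest for most members above the dashed line at 10 CPM.

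The order of the most abundant members was close in all mice. The level of miR-127-3p was 36272, 36738 and 39139 CPM in PND and 33455, 30058 and 36009 CPM in CON. Its 3 PND values were the 3 highest. Next came both arms of miR-434: miR-434-5p reached 7314, 7803 and 9339 CPM in PND and 7100, 5912 and 8731 CPM in CON, and miR-434-3p 6970, 7918 and 7741 against 7220, 7291 and 7483 CPM. The groups overlapped in both arms, and the mean levels of the pair differed by less than the spread between mice. The fourth member, miR-381-3p, was at 7664, 7860 and 8972 CPM in PND and at 7513, 4244 and 7690 CPM in CON, where CON mouse 2 stood far below the other mice.

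The next 8 members lay between 993.6 and 3713 CPM in every mouse. The level of miR-370-3p was 3338 ± 239 CPM (SD, n = 3) in PND and 3592 ± 106 CPM in CON, and that of miR-300-3p 3248 ± 391 and 2748 ± 536 CPM. For miR-379-5p the means were 2957 ± 231 and 2799 ± 208 CPM, and for miR-411-5p 2893 ± 350 and 2588 ± 437 CPM. Those of miR-379-5p, miR-411-5p and miR-300-3p lay within one another's spread, so the order of these neighbors is not fixed. Lower still, miR-543-3p was at 1967 ± 267 and 2072 ± 139 CPM and miR-433-3p at 1690 ± 100.2 and 1600 ± 90.1 CPM. The levels of miR-541-5p, 1588 ± 114 and 1594 ± 57.2 CPM, overlapped those of miR-433-3p. Last of the 12, miR-495-3p was at 1301 ± 78.0 CPM in PND and 1269 ± 255 CPM in CON.

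Members with a known role in neurons stood at very different levels. The spine regulator miR-134-5p was at 112 ± 2.94 CPM in PND and 102 ± 8.07 CPM in CON, and the synaptic miR-485-5p at 246 ± 16.5 and 244 ± 11.1 CPM. Near these, miR-329-3p was at 216 ± 9.91 and 221 ± 38.9 CPM and miR-410-3p at 586 ± 97.2 and 456 ± 119 CPM. Above them stood miR-409-3p at 1038 ± 99.7 and 992 ± 52.1 CPM, and well below them miR-494-3p at 26.8 ± 0.949 and 22.5 ± 3.36 CPM. The lowest of this list, miR-376a-3p and miR-377-3p, had 6.91 ± 1.87 and 6.19 ± 2.12 CPM in PND and 4.77 ± 2.24 and 4.11 ± 1.88 CPM in CON. The remaining arms opposite Rtl1 spanned a similar range, with miR-431-5p at 86.1 ± 14.2 CPM in PND and 72.9 ± 19.2 CPM in CON, miR-433-5p at 13.3 ± 2.67 and 10.8 ± 3.29 CPM, and miR-431-3p at 9.27 ± 1.41 and 6.56 ± 2.34 CPM. None of the 12 members listed for a role in neurons had a p under 0.05 between the groups.

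The comparison of the PND group with the CON group asked which miRNAs differ after anesthesia and operation. It was fitted with limma on log2(CPM + 1) over all 1189 entries, and fold changes below are on that scale, which understates the change of low members. Of the 96 members, 3 were up-regulated in PND at an unadjusted p under 0.05 (3.12%), beside 4.04% of all entries. No member was down-regulated at that limit, beside 1.09% of all entries. The study also asked for more than a 2-fold change, and on the log2(CPM + 1) scale no member met both limits, beside 0.0841% of all entries. After Benjamini-Hochberg adjustment over all entries no member had a limma p under 0.05, beside 0.421% of all entries, and the smallest adjusted p of a member was 0.768. By the other tools, on the recovered reads, the members up-regulated at an unadjusted p under 0.05 numbered 4 (4.17%, beside 2.78% of all entries) with limma-voom and 3 (3.12%, beside 2.35%) with edgeR quasi-likelihood. They numbered 2 (2.08%) with the edgeR exact test, beside 2.02% of all entries, and 2 with DESeq2, beside 1.68%, again with none after adjustment. The share of members called was thus below that of all entries in the fit reported and above it with each of these tools, on counts of 2 to 4 members.

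The 3 members were miR-127-5p, miR-544-5p and miR-665-5p. The level of miR-127-5p, the minor arm of the hairpin opposite Rtl1, was 293, 347 and 460 CPM in PND and 276, 160 and 288 CPM in CON. PND mouse 3 was highest and CON mouse 2 lowest, and the lowest PND value lay just above the highest CON value. The log2 fold change was 0.62 (SE 0.26, limma adjusted p = 0.768, range of the adjusted p over the alternatives 0.570 to 1). Without CON mouse 2 it was 0.35 and without PND mouse 3 it was 0.45, and leaving out any 1 mouse ended the call, as did the 10 CPM filter, the fit without a variance trend and the edgeR exact test.

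For miR-544-5p, a miRNA of the network drawn by the study, the reads were few: 26, 34 and 31 in PND and 18, 5 and 15 in CON. These are 1.34, 1.93 and 1.75 CPM against 1.18, 0.337 and 0.932 CPM, and the groups did not overlap. The log2 fold change was 0.58 (SE 0.21, limma adjusted p = 0.768, range of the adjusted p over the alternatives 0.570 to 0.983). CON mouse 2 was the lowest of the 6, and without it the log2 fold change was 0.37 and the unadjusted p was above 0.05. The call also ended without PND mouse 2, without PND mouse 3 or without CON mouse 3, and with DESeq2. With a pseudocount of 0.1 in place of 1 the log2 fold change was 1.08. The log2 ratio of the group means in CPM, with no pseudocount, was 1.04, and with that ratio and the exact test of edgeR miR-544-5p was past both limits of the study (unadjusted p under 0.05). The side of the 2-fold limit on which it falls thus depends on the scale. The third, miR-665-5p, had 2, 6 and 2 reads in PND and 1, 0 and 0 reads in CON (limma adjusted p = 0.768), which is at or under the detection floor in all but 1 mouse, so no fold change is given.

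**Figure D3:**
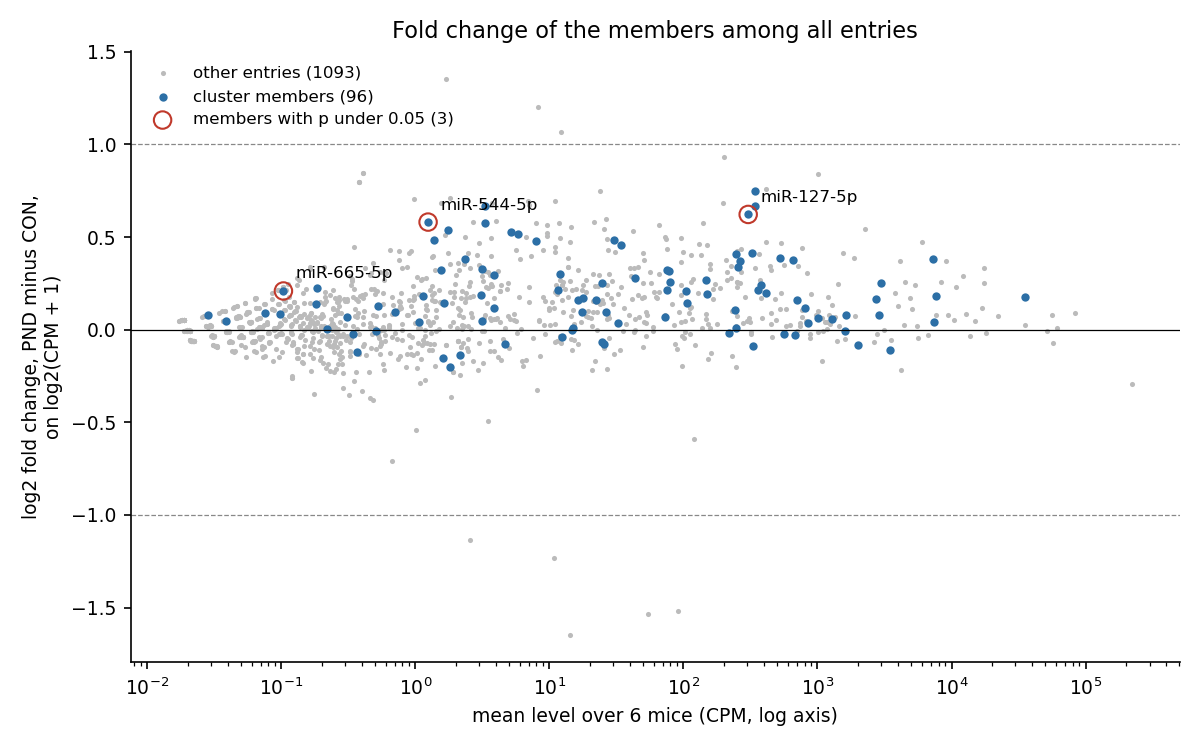
The log2 fold change of PND minus CON on log2(CPM + 1) is plotted against the mean level (CPM, logarithmic horizontal axis) for 96 members in blue and 1093 other entries in gray, with the 3 members of p under 0.05 ringed and dashed lines at 1 and -1. No member reaches either dashed line, and most members lie above 0 among other entries that do the same.

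In all, 8 members (8.33%) had every PND mouse above every CON mouse, beside 7.91% of all entries, and none had every PND mouse below, beside 2.02%. With a mean of at least 10 CPM there were 6 of 60 members in the first class, beside 8.59% of all such entries. Besides the 3 members above these were miR-127-3p, miR-323-3p, miR-329-5p, miR-494-3p and miR-377-5p. The exact permutation test over the 6 mice gave each of them a two-sided p of 0.1, the smallest that 3 against 3 allows. This p follows from the lack of overlap by which they were picked and adds nothing to it. For miR-127-3p the log2 fold change was 0.18 (SE 0.09, limma adjusted p = 0.768). The gap between the groups was narrow for several: the lowest PND value of miR-323-3p was 716 CPM and the highest CON value 704 CPM, and for miR-329-5p these were 249.8 and 243.7 CPM.

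The median log2 fold change of the 96 members was 0.16, beside 0.05 for all entries, and among those with a mean of at least 10 CPM it was 0.17 beside 0.14. The fold change was above 0 for 78 of 96 members, beside 776 of all 1189 entries. This balance moved with the scaling: with TMM factors in place of library totals the median of the members was 0.07 and 61 were above 0 (607 of all entries), and with DESeq2 size factors these were 0.04 and 59 (585 of all entries). Over all entries the split of calls moved as well, from 48 up and 13 down to 34 up and 18 down with TMM factors.

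The summed level of the cluster was 88066, 91391 and 97650 CPM in the PND mice (mean 92369 ± 4866) and 85799, 73054 and 90515 CPM in the CON mice (mean 83123 ± 9033). The groups overlapped, and CON mouse 2 stood apart below. The log2 ratio of the group means was 0.15, beside an SD of 0.126 between mice on the log2 scale, and it was 0.07 without CON mouse 2, 0.03 with TMM factors and 0.0035 with DESeq2 size factors. By region the log2 ratio was 0.19 between Rian and Mirg, 0.16 opposite Rtl1, 0.12 in Mirg, 0.04 between Meg3 and Rtl1, -0.04 in Meg3 and -0.06 in Rian. In bulk tissue, fewer cells of a type and less RNA per cell cannot be told apart.

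The largest movements within the cluster followed single mice. Among the 60 members with a mean of at least 10 CPM, CON mouse 2 was the lowest of the 6 for 49 (81.7%), beside 195 of 301 other entries (64.8%), and PND mouse 3 was the highest for 33 (55.0%), beside 126 of 301 (41.9%). The most abundant entry of the series, miR-128-3p, took 29.2% of the reads of CON mouse 2 and 17.6% of those of PND mouse 3, the highest and the lowest share of the 6, beside 19.0% to 23.2% in the other mice. The TMM factor of CON mouse 2 was 0.860, beside 0.992 to 1.07 in the other mice. The part of either in these orders was not tested.

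The hairpin miR-136, opposite Rtl1, varied most. The level of miR-136-3p was 294, 400.0 and 564 CPM in PND and 307, 132 and 345 CPM in CON, a ratio of 4.28 between the highest and the lowest mouse and the widest of the 60. Its other arm, miR-136-5p, moved with it at 299, 380 and 536 CPM in PND and 312, 127 and 381 CPM in CON. In both arms PND mouse 1 lay below CON mice 1 and 3. The log2 fold changes of 0.75 (SE 0.38) and 0.67 (SE 0.40), both with a limma adjusted p = 0.768, did not pass the test, and without CON mouse 2 they were 0.31 and 0.19. On the recovered reads the unadjusted p of miR-136-3p was under 0.05 with limma-voom (log2 fold change 0.62) and with DESeq2 (0.56). By contrast, the highest mouse exceeded the lowest by a ratio of 1.11 for miR-337-5p and 1.14 for miR-434-3p, miR-411-3p, miR-369-5p and miR-485-5p. The median of this ratio over the 60 members was 1.52, beside 1.48 over the 301 other entries.

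The deviations of CON mouse 2 and PND mouse 3 were set beside GC content, with both mice picked after their values were seen. Among 57 members with a sequence and a mean of at least 10 CPM, the level of CON mouse 2 relative to the mean of the other mice had a median log2 difference of -0.79 for 10 members under 40% GC, -0.31 for 19 members of 40% to 50%, -0.27 for 17 members of 50% to 60% and -0.25 for 11 members of at least 60%. PND mouse 3 went the other way, with medians of 0.56, 0.21, 0.19 and 0.13. The median log2 fold change between the groups was 0.37, 0.16, 0.16 and 0.07 in these classes. Each of these mice is part of the mean that the other is set against, and both enter the fold change. The trends are therefore not independent. Over the 57 members, the slope of the log2 deviation from the mean of all mice, per 10 points of GC, was 0.11 in CON mouse 2 and -0.11 in PND mouse 3. In the other mice it ran from -0.033 to 0.034. Other entries under 40% GC had medians of -0.57 in CON mouse 2 and 0.40 in PND mouse 3 over 44 entries. Across members, Pearson's r with GC content was 0.38 for the deviation of CON mouse 2, -0.47 for that of PND mouse 3 and -0.40 for the fold change (n = 57 members that share the same 6 libraries), given as a description without a p. For 255 other entries these values were 0.29, -0.33 and -0.16. The part of GC content in the fold changes was not tested.

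**Figure D4:**
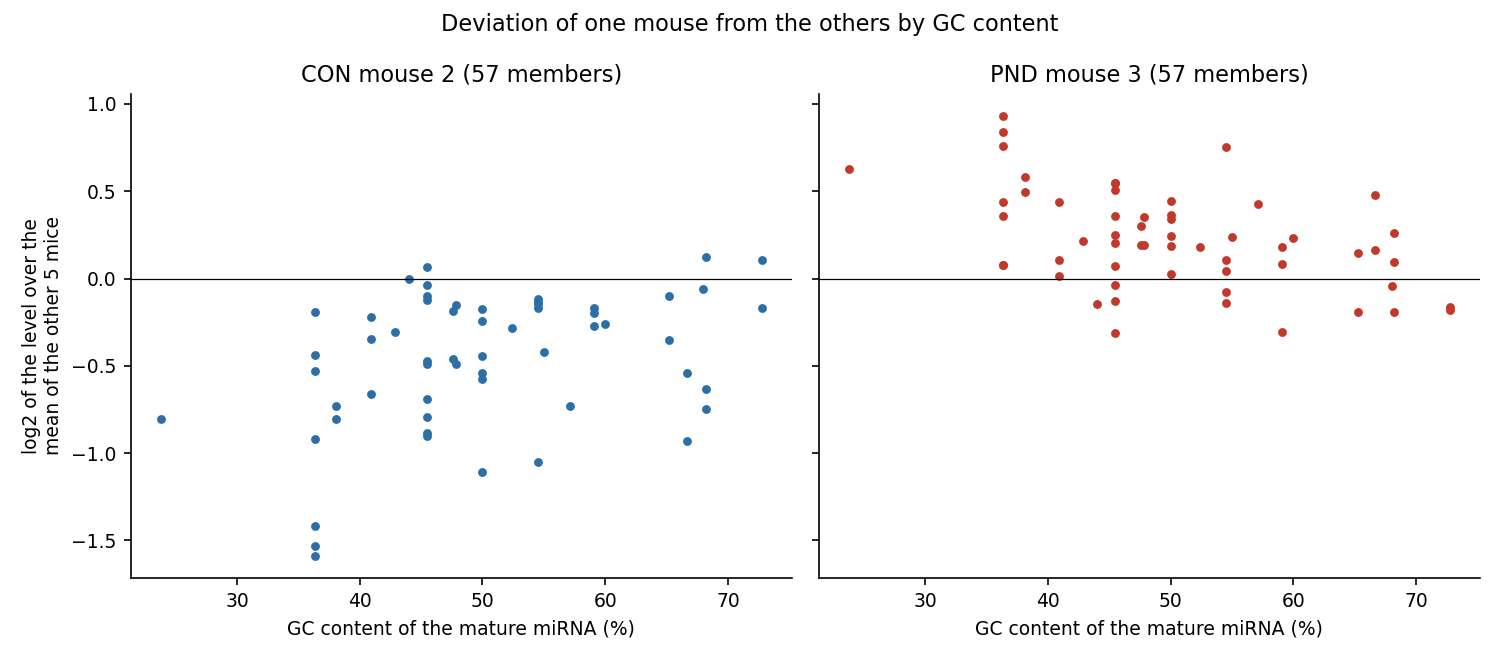
The log2 ratio of the level in 1 mouse to the mean of the other 5 mice (vertical axis) is plotted against the GC content of the mature miRNA (%, horizontal axis) for 57 members with a mean of at least 10 CPM, CON mouse 2 on the left and PND mouse 3 on the right. The lowest points on the left and the highest on the right lie at 36.4% GC, the content of both arms of miR-136 and of miR-154-3p.

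Within a hairpin, reads of both arms come from one precursor, and the share of the 5p arm is a readout that does not change with the scaling of a library. It was computed for 45 hairpins of the cluster with 10 or more reads over both arms in every library. The 5p arm was the main one in 18 hairpins and took over 90% of the reads in 10, while it took under 10% in 18. Thus the arm kept differed between neighboring hairpins of the cluster. The highest 5p share was that of miR-382, 99.8% to 99.9% in the 6 mice, and the lowest that of miR-381, 0.00793% to 0.0253%. The median range across the 6 mice was 2.20 percentage points, beside 3.70 points for 236 other hairpins, but for the 10 hairpins above 90% and the 18 below 10% a range in points is bound to be small.

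In 5 hairpins the arms were near balance and the main arm changed between mice. The 5p share of miR-434 was 51.2%, 49.6% and 54.7% in PND and 49.6%, 44.8% and 53.8% in CON, and that of miR-136 was 50.4%, 48.7% and 48.7% against 50.4%, 49.0% and 52.5%. For miR-673 the shares were 49.3%, 50.9% and 47.6% in PND and 51.9%, 48.3% and 47.2% in CON. In none of the 3 did the groups separate. A wider range was seen for miR-329, with 54.9%, 52.9% and 60.1% in PND and 47.6%, 44.2% and 54.3% in CON, and for miR-369, with 54.6%, 48.0% and 41.6% against 51.5%, 60.9% and 52.6%. In both, CON mouse 2 and PND mouse 3 were the extremes. The widest range of all, 22.9 points, was that of miR-377, from 60.3% in PND mouse 3 to 83.2% in CON mouse 2.

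Between the groups, 2 of the 45 hairpins (4.44%) had 5p shares that did not overlap, miR-134 and miR-665, beside 7.83% of all 281 hairpins tested. The share of miR-134-5p was 96.3%, 96.1% and 96.1% in PND and 95.2%, 95.4% and 95.8% in CON, a difference of 0.661 points. The share of miR-665 rests on as few as 25 reads over both arms in a library. Its 5p arm had 2, 6 and 2 reads in PND and 1, 0 and 0 reads in CON, at or under the detection floor in all but 1 mouse. The exact permutation p was 0.1 for both, two-sided, which follows from the lack of overlap, and 0.667 after adjustment over the 45 hairpins. Of 39 hairpins whose arms differ in GC content, the 5p share of CON mouse 2 was displaced toward the arm of higher GC in 25, and that of PND mouse 3 toward the arm of lower GC in 23. Both mice were picked after their values were seen, and the counts for other mice or other hairpins are not given. Whether the counts depart from an even split was not tested.

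**Figure D5:**
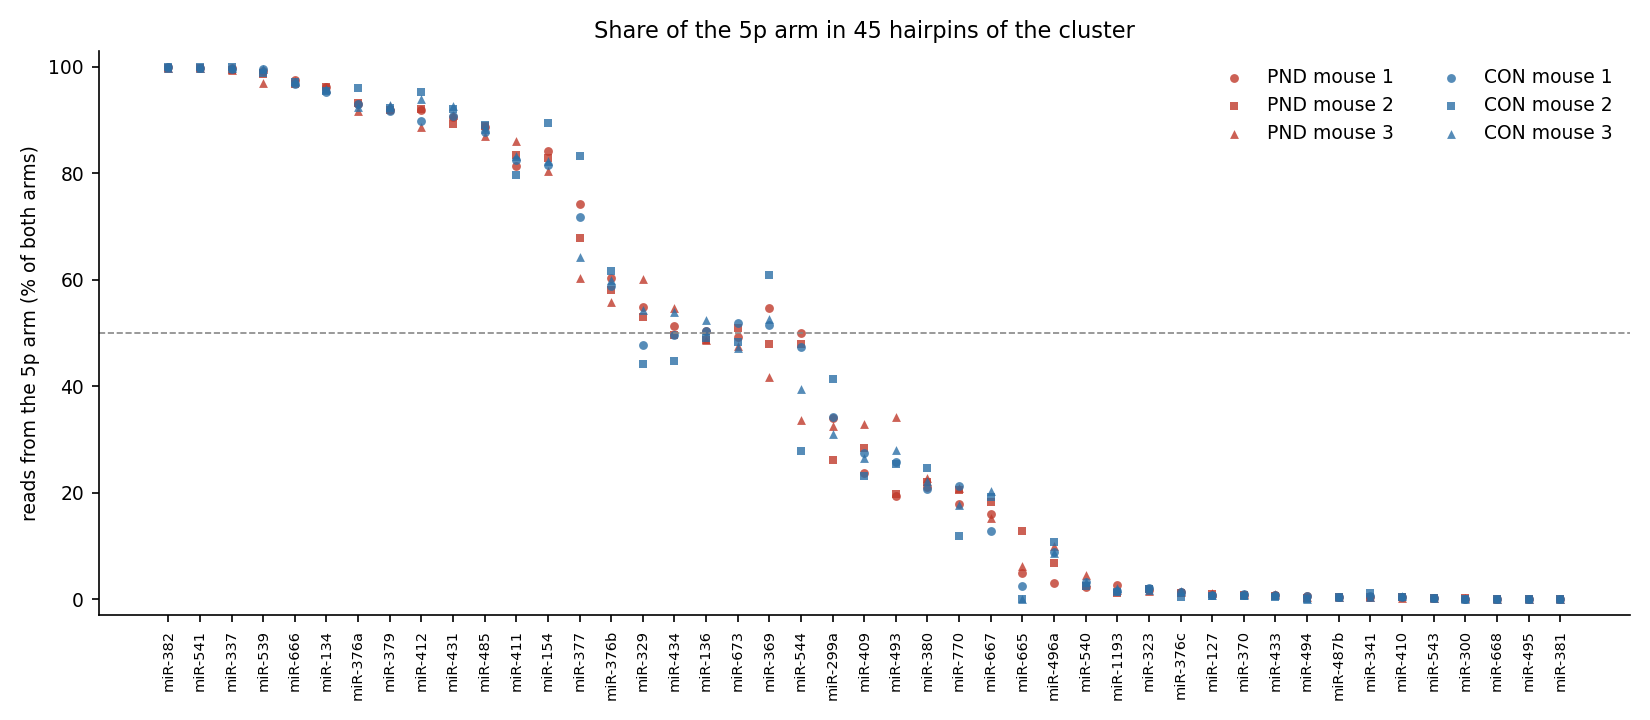
The share of reads from the 5p arm (% of both arms, vertical axis) is plotted for 45 hairpins in order of their mean in PND, red for PND and blue for CON, with 1 symbol per mouse number and a dashed line at 50%. Most hairpins sit near 0% or 100% with all 6 mice together, and the spread is widest between 20% and 85%, where miR-377 spans 22.9 points.

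A list of 6 other entries of the same stretch of chromosome 12 was read, all of them low. It leaves out miR-3070-5p, with a mean of 0.275 CPM over the 6 mice. Of the same domain it also leaves out miR-3072-3p, with a mean of 11.2 CPM, above the sum of the list, and miR-3072-5p, with 0.116 CPM. None of these had a p under 0.05. The 6 listed, miR-1188-5p, miR-1188-3p, miR-3070-2-3p, miR-3070-3p, miR-3071-3p and miR-3544-3p, summed to 2.77 to 3.47 CPM in PND and 1.82 to 2.55 CPM in CON, and 2 had an unadjusted p under 0.05 (higher in PND, beside 4.04% of all entries, limma adjusted p = 0.768 for both). These were miR-3070-2-3p, with 7, 11 and 7 reads against 4, 2 and 4, and miR-3544-3p, with 1, 2 and 2 reads against 0 in each CON mouse, which is under the detection floor in every library. For context, 9 neuronal miRNAs outside the cluster had a median log2 fold change of 0.17 and 8 listed imprinted miRNAs of other domains 0.24, with none at p under 0.05 in either list.

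Markers of the tissue and of other cells were read for the same libraries. The 3 neuronal markers miR-124-3p, miR-128-3p and miR-138-5p summed to 183107 to 238119 CPM in PND and 220833 to 296635 CPM in CON, nearly all of it miR-128-3p (176370 to 292349 CPM, log2 fold change -0.29). The other markers of the list had fold changes of the opposite sign, 0.24 for miR-124-3p and 0.32 for miR-138-5p, and none of the 3 had a p under 0.05. CON mouse 1 stood apart in 8 epithelial miRNAs, at 1646 CPM beside 67.0 to 198 CPM in the other mice, and PND mouse 1 in 5 red blood cell miRNAs, at 191 beside 84.9 to 117 CPM. The 3 microglia and leukocyte miRNAs summed to 11.5 to 21.4 CPM in PND and 7.41 to 15.8 CPM in CON, with 1 of the 3 at p under 0.05, higher in PND, beside 4.04% of all entries. The markers differed in direction, with log2 fold changes of 0.51 for miR-142a-5p, the marker called, 0.44 for miR-142a-3p and -0.23 for miR-223-3p. Markers of oligodendrocytes (1384 to 1765 CPM), endothelium (11991 to 14372 CPM) and muscle (413 to 601 CPM) overlapped between the groups. No marker of these lists was at 0 in every library, and their part in the levels of the cluster was not tested.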

How the data were processed

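Small RNA of the prefrontal cortex was sequenced from 3 PND and 3 CON mice. The authors filtered the reads, aligned them with Bowtie (0.12.2, with the builds mm8 and mm9, in the submitters' processing notes) and assigned them to miRBase miRNAs. The miRBase release and the rule for reads with several matches are not given in the sources used here. The deposited values, which the study calls TPM and describes as TMM-scaled, are CPM: each column sums to 1000000 within 2, and 100% of values lie within 0.1 of a whole read, so reads were recovered for the alternatives. Read depth is given in the report, and detection floors cover counting error only. Sequences and positions are from RefSeq (GRCm38.p6) and host genes from GENCODE M21; the files hold names only.

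The main test was limma 3.58.1 (R 4.3.3, eBayes with trend) on log2(CPM + 1) for all 1189 entries, PND against CON, with Benjamini-Hochberg adjustment over all of them and no filter. Single members and 5p shares were compared by exact permutation over the 6 mice. The alternatives were a pseudocount of 0.1, filters on low values, no variance trend, TMM factors (edgeR 4.0.16), DESeq2 1.42.0 size factors, limma-voom, edgeR quasi-likelihood and exact tests and DESeq2 on the recovered reads, a replicate block, and each mouse left out, each run for every named member. On simulated data of the PND against CON comparison (1175 entries), a call needed a limma p under 0.05 and more than a 2-fold change. By both limits limma called 101 of 198 entries changed 4-fold, including all 62 at 10 CPM or more, and 1 of 977 unchanged ones. The simulated entries varied independently, with no shift of a whole mouse. The simulation thus gives no rate of false calls for p under 0.05 alone in these data. Replicates of a group differed far beyond sampling noise, so each counted as 1 sample.

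Members and lists were chosen with earlier results of these data known. Named members are the 12 most abundant, those with p under 0.05, 12 listed for a role in neurons, both arms of the hairpins opposite Rtl1, miR-544-5p, the member that varied most, and the hairpins with the highest, lowest or side-changing 5p share. Members named besides these (such as miR-323-3p, miR-337-5p and miR-377) were chosen after their values were seen.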

Additional observations from a re-analysis of the deposited data

How the results depend on the processing

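With 1 mouse left out, the members up-regulated at p under 0.05, 3 in the fit reported, numbered 0 to 7, and the share of all entries moved as well: 0 members beside 1.60% of all entries without PND mouse 2, 0 beside 1.93% without CON mouse 2, 1 (1.04%) beside 3.36% without PND mouse 3 and 7 (7.29%) beside 6.31% without CON mouse 1. Of the 60 members at 10 CPM or more 0 were called, beside 1.39% of all such entries. The members past both limits were 2 with a pseudocount of 0.1, beside 22 of all 1189 entries. They were 1 with limma-voom, beside 32 of all entries, and 1 with the edgeR exact test, beside 34. None passed an adjusted p of 0.05, and none was down-regulated at p under 0.05, under any setting run. The members whose groups did not overlap, 8 higher and 0 lower, were 4 and 1 with TMM factors and 3 and 1 with DESeq2 size factors. With 1 mouse left out they were 9 to 36 higher (36 without PND mouse 1, 24 without CON mouse 1) and 0 to 4 lower, where fewer mice need to be ordered. The log2 ratio of the summed level fell from 0.15 to 0.0035 with DESeq2 size factors. The hairpins with 5p shares that did not overlap, 2 in all, were 1 of 41 with 100 reads over both arms and 4 to 14 with 1 mouse left out. Under these settings the shares of all entries or all hairpins without overlap are not given. The counts without overlap can therefore not be read as a trait of the cluster.

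The log2 fold changes of 28 named members turned sign in 58 of 520 values under the alternatives, none of them past p under 0.05 in the fit reported or under that alternative, and 10 members never turned. With TMM factors these were miR-434-3p -0.083, miR-379-5p -0.044, miR-433-3p -0.044, miR-495-3p -0.067, miR-485-5p -0.11 and miR-409-3p -0.060. With DESeq2 size factors they were miR-434-3p -0.11, miR-379-5p -0.073, miR-433-3p -0.073, miR-495-3p -0.097, miR-134-5p -0.0058, miR-485-5p -0.14 and miR-409-3p -0.090. On the recovered reads they were miR-434-3p -0.082, miR-379-5p -0.043, miR-433-3p -0.043, miR-495-3p -0.069, miR-485-5p -0.11 and miR-409-3p -0.060 with limma-voom, miR-434-3p -0.087, miR-379-5p -0.044, miR-433-3p -0.041, miR-495-3p -0.073, miR-485-5p -0.11 and miR-409-3p -0.053 with edgeR quasi-likelihood, and miR-434-3p -0.12, miR-379-5p -0.075, miR-433-3p -0.071, miR-495-3p -0.10, miR-134-5p -0.0055, miR-485-5p -0.14 and miR-409-3p -0.083 with DESeq2. Where leaving out 1 mouse turned a sign, the ranges were miR-329-3p -0.11 to 0.12, miR-409-3p -0.0044 to 0.13, miR-485-5p -0.037 to 0.060, miR-495-3p -0.11 to 0.18, miR-541-5p -0.048 to 0.052 and miR-543-3p -0.17 to 0.027.

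Chosen after seeing the data, CON mouse 2 and PND mouse 3 were left out together. Then 0 members had p under 0.05, beside 27 up-regulated and 12 down-regulated of all 1189 entries. The median log2 fold change of the members was -0.0059, and 46 members in place of 78 were above 0. With both left out, 12 named members turned sign (miR-434-5p -0.060, miR-300-3p -0.013, miR-379-5p -0.038, miR-411-5p -0.068, miR-543-3p 0.037, miR-541-5p 0.049, miR-495-3p -0.13, miR-376a-3p -0.037, miR-377-3p -0.030, miR-136-5p -0.031, miR-431-5p -0.093 and miR-433-5p -0.11). Regressing GC content out of each library was also added later. It took out the fitted level of each library along with its GC slope, so it rescaled the libraries too. It left 1 of 57 members at p under 0.05 (miR-127-5p, 0.51), beside 8 of 312 entries. The median was 0.04 over the 57 members and -0.010 over the 312 entries. The 5 turned signs (miR-434-3p -0.12, miR-379-5p -0.071, miR-433-3p -0.035, miR-495-3p -0.15 and miR-409-3p -0.052) also turned with TMM factors. GC content and scaling cannot be told apart in this fit. The cause was not tested.

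The replicate block gave 2 members up-regulated at p under 0.05 (2.08%, beside 3.78% of all entries) in place of 3, miR-665-5p being lost. Deviations of same-numbered mice correlated at -0.13, 0.12 and 0.51 over 361 entries, beside a mean of -0.085 for mice of different numbers. These 3 values cannot decide whether the numbers pair the mice. At fewer than 3 reads per library, the lowest members had too few reads at this depth for a change to be read. The fit had no filter, so entries at that level could still be called, as miR-3544-3p was at an unadjusted limma p under 0.05.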
